A study of Homo sapiens with 6 samples.

Results

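The loci of 9 genes that are widely used as readouts of YAP and TAZ activity were examined in H1299 cells: TGFB2, IGFBP3, AXL, F3, CRIM1, NT5E, MYOF, DOCK5 and ANKRD1. They were chosen by name as classic targets, not by a cut on their values in these lists, though earlier results of these data were known. Each locus was taken as the gene span in whole kb with 20 kb added on either side. The 9 windows held 182 and 169 of the 392120 and 353336 peaks of the 2 YAP libraries, and 177 and 148 of the 333505 and 310657 peaks of the 2 TAZ libraries, on chromosomes 1 to 22 and X. With peaks that shared 1 bp or more joined into one, they made up 209 of 452943 regions.

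H1299 is a human cell line of non-small cell lung cancer origin. All groups were cells of this line starved of serum for 18 hours, with no genetic change or drug named in the labels, and chromatin immunoprecipitation followed by sequencing was done with an antibody against YAP (2 libraries) or against TAZ (2 libraries), with 2 input libraries taken without antibody. YAP and TAZ were each reached with their own antibody, so the factor and the antibody cannot be told apart. Nothing in the labels placed replicates in separate cultures, so spreads between libraries may be technical, and the expression of the 9 genes was not measured in these files.

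YAP and TAZ are transcriptional coactivators at the end of the Hippo pathway. They do not bind DNA themselves but are brought to it by partners, above all the TEAD factors, often at places where AP-1 factors also bind. Many of their contacts with DNA lie in enhancers far from the genes that respond, so a target gene need not carry the coactivators at its own promoter. The genes studied here encode ligands and binding proteins outside the cell (TGFB2, IGFBP3), proteins of the cell surface (AXL, F3, CRIM1, NT5E), a membrane repair protein and a regulator of small GTPases (MYOF, DOCK5), and an ankyrin repeat protein of nucleus and sarcomere (ANKRD1).

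Coverage by peaks differed widely between the loci, and the loci fell in a similar order in the 4 libraries. Peaks covered most of the AXL window, 76.5% ± 5.6 of its bases (mean and SD of the 4 libraries, n = 4), followed by MYOF with 35.3% ± 3.5 and DOCK5 with 18.0% ± 5.3. The other 6 loci were covered less: NT5E 9.59% ± 2.79, TGFB2 7.84% ± 2.64, ANKRD1 6.55% ± 1.93, F3 5.62% ± 1.02, CRIM1 5.26% ± 1.31 and IGFBP3 4.61% ± 3.40. AXL and MYOF were separated from each other and from the rest in every library. The lowest DOCK5 value, 12.5%, lay just under the highest NT5E value, 13.0%, and neighbours among the lower 6 overlapped. The rank order of the 9 loci had a Spearman's rho of 0.867 between the YAP libraries, 0.533 between the TAZ libraries and 0.683 to 0.850 between a YAP and a TAZ library (n = 9 loci, given as a description; all 4 lists share the sequence of the same cells and possibly an input).

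**Figure D1:**
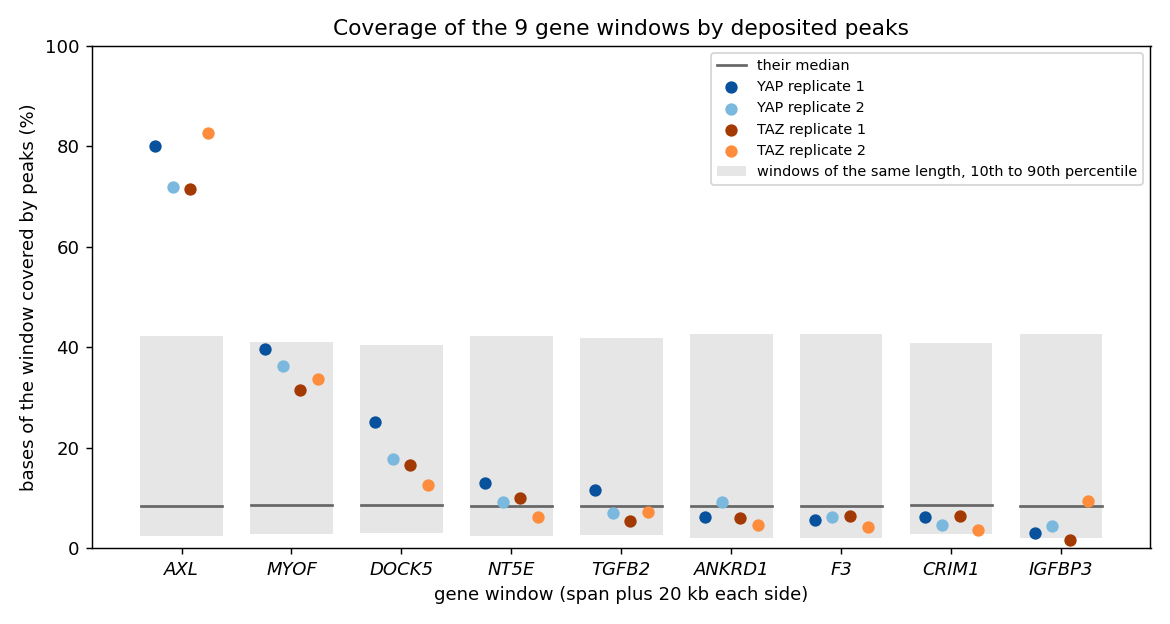
Percent of the bases of each gene window covered by deposited peaks, 1 point per library, genes ordered by their mean. Grey bars run from the 10th to the 90th percentile, and the dark line marks the median, of the mean coverage of all windows of the same length tiled over the genome; AXL lies above the grey bar, and the other 8 genes have means within it.

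Set beside the whole genome, the 9 loci were not alike. Peaks covered 17.0% and 14.8% of chromosomes 1 to 22 and X with YAP and 13.3% and 14.0% with TAZ. In the 9 windows together they covered 22.9% and 19.0% with YAP and 17.9% and 17.7% with TAZ, which was 1.35, 1.29, 1.34 and 1.26 times the genome's value. This excess rested on AXL and MYOF. Without AXL the ratios were 1.09, 1.02, 1.03 and 0.909, and without AXL and MYOF they were 0.788, 0.663, 0.709 and 0.542. Both genes were left out for their high coverage while the genome was kept whole, so lower ratios were built in. The median locus had a coverage of 11.6%, 9.24%, 6.48% and 7.28%, below the genome's value in every library, and 6, 6, 6 and 7 of the 9 loci lay below it.

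Windows of the same length, tiled over the genome without long peak-free stretches, gave a further yardstick. Their median coverage was 8.39% to 8.70%, below the genome's value, and their 90th percentile was 40.5% to 42.7%. A locus below the genome's value can thus lie above the median window, as NT5E did (9.59% beside 8.41%). TGFB2, ANKRD1, F3, CRIM1 and IGFBP3 lay below the median of their windows. Only 0.893% of 34260 windows of 83 kb were covered as fully as AXL. Chromosome 19 is covered by peaks more densely than the genome, however, and 23.9% of its own 673 windows reached the coverage of AXL. For MYOF the shares were 13.4% of the genome's windows and 9.33% of those of chromosome 10, and for DOCK5 29.1% and 20.8% of those of its own chromosome. Between 45.4% (NT5E) and 71.7% (IGFBP3) of the genome's windows were covered at least as fully as each of the other 6 loci.

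The start of a gene, where its promoter lies, was read at the resolution of the spans, which are given in whole kb. A peak lay within 2 kb of the start in all 4 libraries at 4 of the 9 genes, AXL, CRIM1, MYOF and DOCK5. The number was 3 within 1 kb and 6 within 5 kb. The share of all gene starts with such a peak was not measured, so this count has no yardstick. Over the genome the lists held 129 and 116 peaks per Mb with YAP and 110 and 102 with TAZ. F3 had such a peak in 3 libraries, IGFBP3 in 2, NT5E in 1, and TGFB2 and ANKRD1 in 0. The count of 4 fell to 2 when only peaks with q of 0.01 or less were kept, and likewise when all lists were made as short as the shortest, and to 0 when peaks needed a fold of 4 or more. At TGFB2 the nearest peak lay 10.5 and 11.3 kb from the start in YAP libraries and 11.8 and 10.6 kb in TAZ libraries. At ANKRD1 it lay 5.05, 4.97, 5.06 and 4.69 kb away, so both genes were free of peaks at their start in all 4 lists. A missing peak says only that the caller's threshold was not passed, at a depth the lists do not state.

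The promoters of ANKRD1, TGFB2, F3 and the second AXL start are shown because they hold letters that match the core motif of TEAD factors or of AP-1, the DNA-binding partners named above, and the first AXL promoter is shown because peaks of all 4 libraries covered the AXL start. They run from 250 bases before to 50 bases after a start, 5′ to 3′ along the strand of the gene, as given by RefSeq for GRCh38.p14, a later build than the hg19 of the peaks. Capitals mark the matches to GGAATG or its reverse complement CATTCC (TEAD) and to TGANTCA (AP-1), searched on both strands; no match overlapped one of the other motif. The RefSeq table held 8 promoters of 7 of the 9 genes, with no entry for CRIM1 or DOCK5.
ANKRD1, chr10:90921038-90921337, minus strand: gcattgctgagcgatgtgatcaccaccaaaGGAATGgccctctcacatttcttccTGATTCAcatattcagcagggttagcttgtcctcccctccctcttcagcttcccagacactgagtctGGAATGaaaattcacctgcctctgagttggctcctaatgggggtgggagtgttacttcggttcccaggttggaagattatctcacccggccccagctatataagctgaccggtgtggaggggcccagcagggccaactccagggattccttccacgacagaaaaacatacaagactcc
TGFB2, chr1:218345086-218345385, plus strand: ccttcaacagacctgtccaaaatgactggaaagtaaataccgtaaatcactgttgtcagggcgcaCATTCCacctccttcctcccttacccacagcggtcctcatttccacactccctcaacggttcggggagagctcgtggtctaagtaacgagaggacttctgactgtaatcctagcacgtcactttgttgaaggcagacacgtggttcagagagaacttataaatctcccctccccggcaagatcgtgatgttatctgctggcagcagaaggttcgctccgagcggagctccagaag
F3, chr1:94541710-94542009, minus strand: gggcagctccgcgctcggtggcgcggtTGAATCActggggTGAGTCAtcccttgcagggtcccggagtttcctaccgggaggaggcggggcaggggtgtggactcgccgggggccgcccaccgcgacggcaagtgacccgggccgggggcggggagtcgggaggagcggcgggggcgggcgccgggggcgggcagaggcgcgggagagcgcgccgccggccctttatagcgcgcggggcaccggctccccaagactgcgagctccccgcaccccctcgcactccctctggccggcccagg
AXL, first start, chr19:41218973-41219272, plus strand: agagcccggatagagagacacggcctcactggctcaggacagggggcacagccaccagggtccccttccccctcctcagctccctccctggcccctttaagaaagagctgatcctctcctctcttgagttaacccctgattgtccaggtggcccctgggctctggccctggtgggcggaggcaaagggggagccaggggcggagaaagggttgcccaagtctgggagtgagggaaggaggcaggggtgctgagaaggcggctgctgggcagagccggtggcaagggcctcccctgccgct
AXL, second start, chr19:41226505-41226804, plus strand: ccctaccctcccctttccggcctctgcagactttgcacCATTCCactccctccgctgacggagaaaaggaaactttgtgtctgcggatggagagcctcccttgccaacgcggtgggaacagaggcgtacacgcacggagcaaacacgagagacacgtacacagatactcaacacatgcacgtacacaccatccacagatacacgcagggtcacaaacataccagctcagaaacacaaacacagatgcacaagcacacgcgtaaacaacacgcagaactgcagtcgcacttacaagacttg

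The ANKRD1 promoter held 2 TEAD matches, 220 and 128 bases before the start, with an AP-1 match between them at 195 bases. The TGFB2 promoter held 1 TEAD match, 185 bases before the start, the F3 promoter held 2 AP-1 matches at 223 and 210 bases, and the second AXL promoter held 1 TEAD match at 212 bases. Matches to so few letters are common: of 35116 promoters of this length in the table, 14.0% held the TEAD letters, 7.71% the AP-1 letters and 1.45% both. The NT5E and IGFBP3 promoters held neither. The ANKRD1 and TGFB2 promoters, both with TEAD matches, belonged to the genes with no peak within 2 kb of the start, while the first AXL promoter and the MYOF promoter, with a peak near the start in all 4 libraries, held neither motif. Not every gene followed this: F3, with 2 AP-1 matches, had a peak near the start in 3 libraries. AXL also held a TEAD match at its second start, which lies past the first along the gene and was not placed among the hg19 peaks. Peaks covered 90.4% and 78.7% of the AXL span with YAP and 78.3% and 91.5% with TAZ. As a whole, AXL thus had both a TEAD match and dense peaks.

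**Figure D2:**
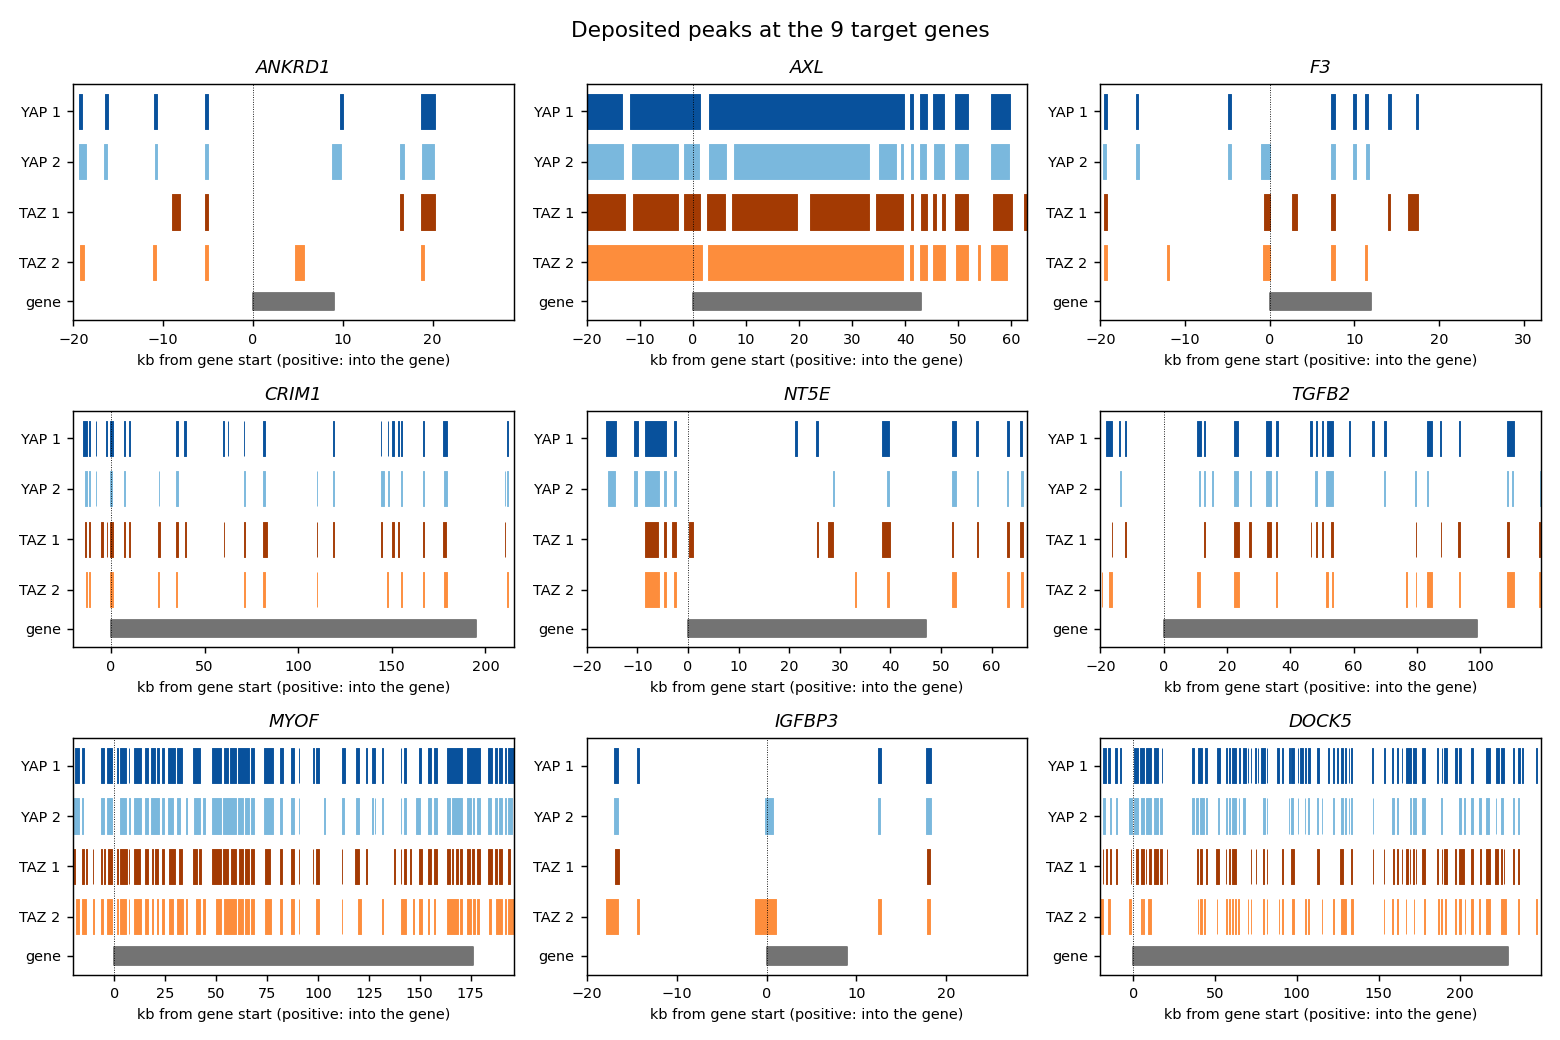
Deposited peaks of the 4 libraries along the 9 gene windows, in kb from the gene start, with positive values into the gene; bars are peaks, the grey bar is the gene span and the dotted line its start. AXL is filled by wide peaks in all 4 libraries, MYOF and DOCK5 carry peaks along their length, and ANKRD1 and TGFB2 have no peak within 2 kb of the start.

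Among the ligands and binding proteins, TGFB2 encodes transforming growth factor beta 2, a secreted cytokine. Its span is chr1:218519001-218618000 in hg19. Its window was covered to 11.6% and 6.93% in YAP libraries and 5.51% and 7.28% in TAZ libraries, with 19, 16, 16 and 13 peaks, and the antibodies overlapped. No library had a peak within 10 kb of the start, and most peaks lay inside the gene. Of 25 merged regions, 4 had a peak in all 4 libraries. The best-ranked of them, chr1:218554487-218554931, lay 35.7 kb inside the gene and had a fold over input of 4.24 and 3.84 with YAP and 3.25 and 3.46 with TAZ. The next, chr1:218570208-218572493, lay 52.4 kb inside and had 3.32 and 3.25 with YAP and 3.81 and 3.55 with TAZ. The highest fold of the locus, 4.85, belonged to a peak of YAP replicate 1 at chr1:218584854-218585335, where the other 3 libraries had none. Both YAP libraries but neither TAZ library had peaks at chr1:218504995-218505372 (3.31 and 3.01) and at chr1:218588698-218589161 (3.38 and 2.70).

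IGFBP3 encodes the main carrier of insulin-like growth factors in blood. Its span, chr7:45952001-45961000, lies beside IGFBP1, a gene for another such carrier. The window was among the emptiest, with 4 and 4 peaks with YAP and 2 and 5 with TAZ, and a coverage of 2.97%, 4.52%, 1.56% and 9.38%. TAZ replicate 2 was the highest and TAZ replicate 1 the lowest, so the TAZ libraries lay on either side of both YAP libraries. Both regions with a peak in all 4 libraries lay outside the gene. The one at chr7:45942687-45943259, 18.0 kb from the start beyond the end of the gene, had a fold of 3.67 and 3.63 with YAP and 4.90 and 2.82 with TAZ. The one at chr7:45977433-45978881, 17.2 kb before the start, had 4.74 and 2.39 with YAP and 2.91 and 3.19 with TAZ. At the start itself only the libraries numbered 2 had a peak, with a fold of 2.73 with YAP and 3.27 with TAZ. Peaks were denser further out: coverage was 5.13% ± 6.09 in the gene and 26.1% ± 2.2 between 20 and 100 kb from its ends (SD over the 4 libraries, n = 4).

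Among the surface proteins, AXL encodes a receptor tyrosine kinase of the TAM family, which binds the ligand GAS6. Its span is chr19:41725001-41768000, between CYP2S1 and HNRNPUL1. Peaks covered 80.0% and 72.0% of the window in YAP libraries and 71.5% and 82.6% in TAZ libraries. The libraries of the 2 antibodies thus overlapped fully. The same libraries covered 50.3%, 48.6%, 46.5% and 50.6% of chromosome 19, so the AXL window was 1.59, 1.48, 1.54 and 1.63 times as covered as its chromosome. Few but very wide peaks made up this coverage. There were 8 and 12 peaks with YAP and 14 and 8 with TAZ, and the widest measured 36788 and 25463 bp with YAP and 12260 and 36816 bp with TAZ. Of the bases of the window, 65.3% were covered in all 4 libraries, against 7.11% of the genome.

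Of the 9 merged regions at AXL, 8 had a peak in all 4 libraries, and the other had one in TAZ replicate 2 alone. The region chr19:41727733-41764726 took up most of the gene and had a fold of 3.77 and 3.60 with YAP and 4.23 and 3.52 with TAZ. The region chr19:41787516-41800003 began inside the window and ran past its edge, with 3.84 and 3.98 with YAP and 3.62 and 3.68 with TAZ. There only the peak of TAZ replicate 1 reached into the window, and the peaks of the other libraries lay past the edge. Over the start the fold was lower, 3.40 and 2.61 with YAP and 3.44 and 3.23 with TAZ. Coverage stayed high around the gene: it was 84.7% ± 7.2 in the gene, 67.7% ± 4.1 within 20 kb of its ends, 81.4% ± 4.2 from 20 to 100 kb and 39.9% ± 3.6 from 250 to 500 kb (SD over 4 libraries, n = 4). The ring within 20 kb was below the gene in all 4 libraries, with the lowest coverage past the end of the gene (45.0% and 43.7% with YAP, 42.2% and 46.0% with TAZ).

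F3 encodes tissue factor, the cell-surface protein that starts blood coagulation. Its span is chr1:94995001-95007000, next to ABCD3. Coverage was 5.65% and 6.18% with YAP and 6.48% and 4.17% with TAZ, with 8, 7, 6 and 5 peaks. The best-ranked region lay inside the gene. It was chr1:94999234-94999773, 7.5 kb from the start, with a fold of 3.87 and 4.51 with YAP and 3.04 and 3.31 with TAZ, so both YAP values were above both TAZ values. At the start YAP replicate 2 had a peak of fold 2.71, TAZ replicate 1 one of 2.47 and TAZ replicate 2 one of 3.63, while the nearest peak of YAP replicate 1 lay 4.60 kb away. A second region in all 4 libraries, chr1:95026188-95026729, lay 19.5 kb before the start and had 2.57 and 3.31 with YAP and 4.09 and 3.47 with TAZ. A further 3 of the 11 regions at this gene had peaks of both YAP libraries and none of TAZ: chr1:94996818-94997185 (2.34 and 3.12), chr1:95011603-95011925 (3.29 and 3.59) and chr1:95022425-95022773 (2.37 and 3.39).

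CRIM1 encodes a transmembrane protein with cysteine-rich repeats that binds bone morphogenetic proteins. Its span is chr2:36583001-36778000. Although long, the locus was poorly covered, to 6.28% and 4.64% in YAP libraries and 6.40% and 3.70% in TAZ libraries, with 22, 18, 21 and 13 peaks. The libraries numbered 1 were higher than those numbered 2 for both antibodies. All 4 libraries had a peak over the start, at chr2:36582307-36584327, with a fold of 2.39 and 2.55 with YAP and 3.32 and 4.02 with TAZ. The libraries numbered 1 had a higher fold, 4.49 with YAP and 3.43 with TAZ, at chr2:36580659-36581115, 2.1 kb before the start. The libraries numbered 2 had no peak there. Of 26 regions, 8 had a peak in all 4 libraries. The best-ranked lay near the far end of the gene: chr2:36749683-36750375, 167 kb from the start, with 3.68 and 3.63 with YAP and 3.39 and 3.30 with TAZ, and chr2:36760466-36762407, 178.4 kb from the start, with 3.59 and 3.08 with YAP and 4.68 and 3.82 with TAZ. Of the 26 regions, 1 had peaks of both YAP libraries and none of TAZ, chr2:36574845-36575161, with 3.24 and 2.52.

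NT5E encodes CD73, the surface enzyme that makes adenosine from AMP. Its span is chr6:86159001-86206000, with SNX14 as the neighbour. Coverage was 13.0% and 9.24% with YAP and 9.97% and 6.18% with TAZ, and coverage was higher before the gene than in it. In the 20 kb before the start they covered 36.2% and 27.7% with YAP and 18.2% and 16.3% with TAZ, against 4.36% and 1.34% (YAP) and 7.59% and 1.28% (TAZ) of the gene. In the 20 kb past its end they covered 9.99% and 9.37% (YAP) and 7.35% and 7.62% (TAZ). The region chr6:86150449-86154693, centred 6.4 kb before the start, had a fold of 3.26 and 3.90 with YAP and 4.25 and 3.54 with TAZ. The other leading region, chr6:86224628-86225238, lay 65.9 kb from the start, past the end of the gene. It had 4.45 and 4.38 with YAP and 3.22 and 2.95 with TAZ, with a −log10 q of 12.5 and 7.84 with YAP and 4.18 and 2.81 with TAZ. Its YAP peaks were the best-ranked of all peaks at the 9 genes in both YAP libraries, at rank 1055 of 392120 and 3129 of 353336. Regions with peaks of both YAP libraries and none of TAZ numbered 2 of 14, chr6:86142809-86144719 (3.00 and 2.11) and chr6:86148329-86149090 (2.46 and 2.52). At the start only TAZ replicate 1 had a peak, of fold 2.10.

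MYOF encodes myoferlin, a protein of the ferlin family that takes part in membrane fusion and repair. Its span is chr10:95066001-95242000, next to CEP55. Coverage was 39.7% and 36.2% in YAP libraries and 31.5% and 33.7% in TAZ libraries, with 43, 45, 52 and 45 peaks. That was 2.34, 2.59, 2.48 and 2.51 times the coverage of chromosome 10 in the same libraries. Along the gene, coverage was highest towards the start, at 46.2% ± 3.2 and 47.7% ± 3.8 in the first and second of 4 equal parts, 12.4% ± 4.5 in the third and 31.7% ± 3.9 in the last (SD over 4 libraries, n = 4). The difference between the third and the others was larger than the spread between libraries.

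Of the 46 regions at MYOF, 32 had a peak in all 4 libraries. The best-ranked, chr10:95220190-95223725, lay 20 kb inside the gene and had a fold of 4.75 and 3.45 with YAP and 4.63 and 3.88 with TAZ. The next, chr10:95182217-95188481, lay 56.7 kb inside, with 4.14 and 3.82 with YAP and 3.56 and 3.85 with TAZ. The highest fold at any of the 9 genes, 5.55, was that of a peak of YAP replicate 1 at chr10:95151059-95151430. The other libraries had 3.18 (YAP replicate 2), 2.44 and 2.97 (TAZ) in the same region, so that height came from 1 library. Near the start the highest fold was 3.54 and 3.17 with YAP and 4.38 and 4.82 with TAZ, but in different regions. The TAZ values were those of chr10:95240141-95240545, where YAP replicate 1 had 3.42 and YAP replicate 2 had no peak. The YAP values were those of chr10:95242900-95245723, where TAZ had 3.21 and 3.01. The region chr10:95113829-95115437 had peaks of both YAP libraries and none of TAZ (2.99 and 3.23), and 1 region had the reverse, chr10:95252080-95252500 (3.22 and 2.44).

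DOCK5 encodes an exchange factor for the small GTPase RAC. Its span, chr8:25042001-25271000, is the longest of the 9. Coverage was 25.2% and 17.8% with YAP and 16.6% and 12.5% with TAZ, with 61, 49, 51 and 46 peaks spread over the whole gene. It was 1.63, 1.32, 1.45 and 1.06 times that of its chromosome. The median fold was 2.84 and 3.13 with YAP and 2.99 and 2.88 with TAZ, and the highest was 3.99 and 4.41 with YAP and 4.68 and 4.57 with TAZ. Of 64 regions, 25 had a peak in all 4 libraries, 5 had peaks of both YAP libraries and none of TAZ, and 6 had a peak of YAP replicate 1 alone. The leading shared regions were chr8:25080695-25085659, with a fold of 3.01 and 3.23 with YAP and 3.60 and 3.65 with TAZ, and chr8:25218818-25220288, with 3.28 and 3.60 with YAP and 2.84 and 4.57 with TAZ. Near the start the highest fold was 2.45 and 3.19 with YAP and 4.68 and 3.34 with TAZ, but in different regions. The YAP values were those of chr8:25042614-25044849 and the TAZ values those of chr8:25039480-25041019.

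ANKRD1 encodes an ankyrin repeat protein that acts in the nucleus and the sarcomere and is one of the most used readouts of YAP and TAZ. Its span is chr10:92672001-92681000, next to RPP30. Coverage was 6.25% and 9.24% with YAP and 6.06% and 4.64% with TAZ, with 6, 7, 4 and 5 peaks. Inside the gene there was little or nothing except in TAZ replicate 2: peaks covered 0% and 1.92% of the span with YAP and 0% and 10.7% with TAZ. Only 2 regions had a peak in all 4 libraries. The one at chr10:92685972-92686366 was centred 5.2 kb before the start. Its fold was 2.80 and 3.59 with YAP and 2.97 and 3.56 with TAZ, and its −log10 q was 2.69 and 4.18 with YAP and 2.21 and 3.61 with TAZ. The libraries numbered 2 were the higher ones with both antibodies. The other, chr10:92660773-92662324, lay past the end of the gene, with 3.16 and 2.86 with YAP and 3.03 and 2.49 with TAZ. Both YAP libraries and neither TAZ library had peaks at chr10:92670967-92672173 (2.03 and 2.67) and chr10:92697190-92697562 (3.08 and 2.48).

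**Figure D3:**
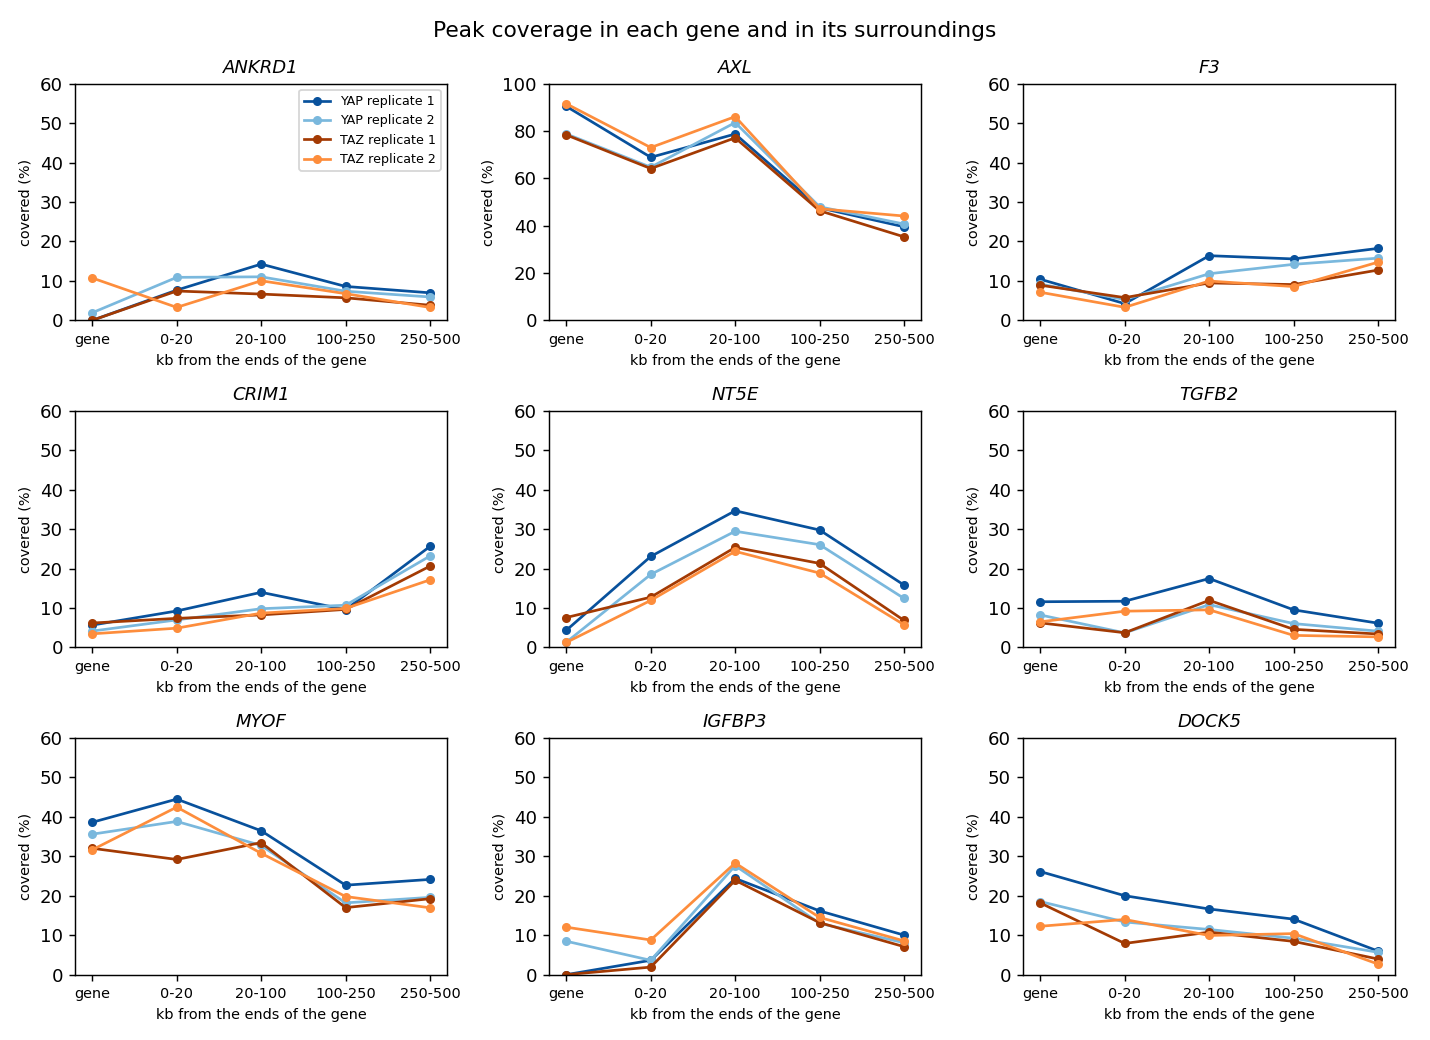
Percent of bases covered by peaks in each gene and in rings from 0 to 20, 20 to 100, 100 to 250 and 250 to 500 kb from its ends, 1 line per library; the vertical scale of AXL differs from the others. NT5E, IGFBP3, F3, CRIM1 and TGFB2 are emptier than the ring from 20 to 100 kb in all 4 libraries, and AXL, MYOF and DOCK5 are fuller than the rings beyond 100 kb.

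In median fold, peaks at the 9 genes resembled the rest of their lists, while the shares of the strongest peaks differed in some libraries. Their median fold was 3.15 and 3.15 in YAP libraries and 3.19 and 3.02 in TAZ libraries, beside 3.14, 3.14, 3.16 and 3.03 for all peaks of the same libraries. Of the peaks there, a fold of 4 or more was found in 17 of 182 and 6 of 169 with YAP and in 20 of 177 and 8 of 148 with TAZ. These shares, 9.34%, 3.55%, 11.3% and 5.41%, stood beside 9.22%, 7.52%, 9.68% and 5.60% of all peaks. MYOF held 9, 3, 8 and 4 of them, and ANKRD1 held 0 in each library. Among the 20000 peaks with the highest −log10 q were 16 and 8 of the YAP peaks and 21 and 11 of the TAZ peaks, or 8.79%, 4.73%, 11.9% and 7.43%. For all peaks the shares are fixed by list length at 5.10%, 5.66%, 6.00% and 6.44%. In YAP replicate 2 the members' share lay below the share of all peaks, and in the other 3 libraries above it.

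These best-ranked peaks sat mostly at AXL, with 5, 2, 7 and 3, and MYOF, with 6, 3, 7 and 5. They merged into 42 regions, of which 32 had such a peak in 1 library only. In all 4 libraries there were 2, both at AXL: chr19:41727843-41764726 over the gene and chr19:41787516-41794466 at the window's edge. At the edge only the peak of TAZ replicate 1 reached into the window, so just the region over the gene had such peaks of all 4 libraries inside it. The region chr10:95153809-95155281 in MYOF had one in 3 libraries. ANKRD1 had none in any library.

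**Figure D4:**
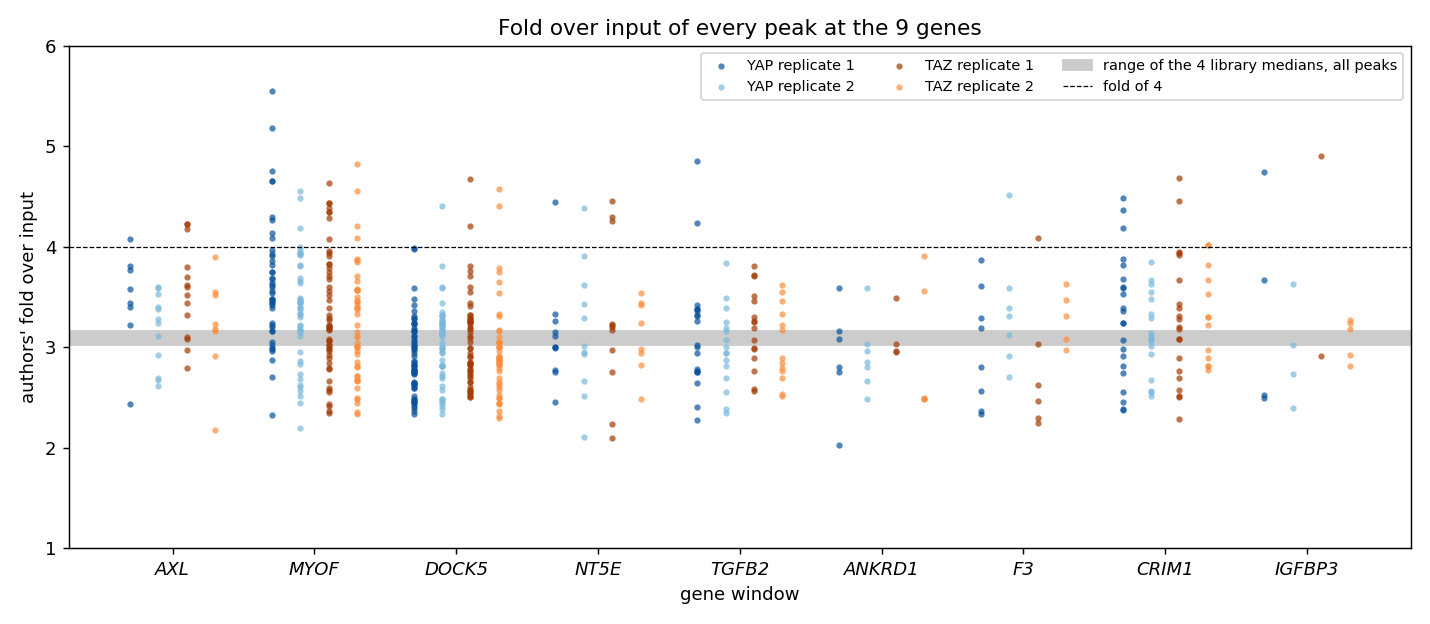
Authors' fold over input of every peak at each gene, 1 point per peak and 1 column per library; the grey band spans the medians of all peaks in the 4 libraries, from 3.03 to 3.16, and the dashed line marks a fold of 4. Most peaks at every gene lie between 2 and 4, and the highest, at 5.55, is a peak of YAP replicate 1 at MYOF.

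The study set out to compare the places where YAP and TAZ sit on chromatin. Over the 9 windows together, coverage was 20.9% ± 2.7 with YAP and 17.8% ± 0.15 with TAZ (n = 2, SD), which differ by 3.19 percentage points. Both YAP libraries were above both TAZ libraries, and an exact permutation test (two-sided) returned p = 0.33, the lowest possible with 2 libraries in each group. With q of 0.01 or less the difference was 4.66. The sign turned to -0.455 with a fold of 4 or more and to -0.216 with the 20000 best-ranked peaks of each list. In these last settings the libraries of the antibodies overlapped. The YAP lists were longer over the genome too. Relative to the genome's coverage in the same library, the values were 1.32 ± 0.045 with YAP and 1.30 ± 0.056 with TAZ (SD, n = 2). This difference of 0.0187 was smaller than the spread between libraries (exact two-sided permutation p = 0.667), and it became -0.0130 without YAP replicate 1 and -0.0212 without TAZ replicate 2. It was -0.00561 with q of 0.01 or less, -1.15 with a fold of 4 or more and -1.35 with the 20000 best-ranked peaks. For -1.15 and -1.35 the exact two-sided permutation p was 0.667 each, so the libraries were not separated by antibody.

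By gene, the covered percent of both YAP libraries was above that of both TAZ libraries at 3 of the 9 loci and the reverse was found at 0. These were DOCK5 (21.5% ± 5.3 against 14.6% ± 2.9, difference 6.91), MYOF (38.0% ± 2.5 against 32.6% ± 1.5, difference 5.38) and ANKRD1 (7.74% ± 2.12 against 5.35% ± 1.00, difference 2.39; SD, n = 2; exact two-sided permutation p = 0.33 each). Over the genome, both YAP libraries were above both TAZ libraries in 52.7% of 28430 windows of 100 kb, and the reverse held in 4.77%, so 3 of 9 lay below the genome's share. Relative to the genome's coverage the antibodies overlapped at all 3 genes: 1.49 and 1.2 with YAP against 1.25 and 0.893 with TAZ at DOCK5, 2.34 and 2.45 against 2.36 and 2.40 at MYOF, and 0.369 and 0.625 against 0.454 and 0.331 at ANKRD1.

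Counted as regions, most places at the 9 genes were seen with more than 1 library. Of the 209 merged regions, 89 had a peak in all 4 libraries (42.6%), against 39.2% of all regions of the genome. Without AXL and MYOF it was 49 of 154 (31.8%). Both genes were left out for their high coverage while the genome was kept whole, so a fall was built in. Regions with peaks of both YAP libraries and none of TAZ numbered 16 (7.66%, against 6.87% of the genome's regions), and those with the reverse numbered 1 (0.478%, against 1.44%). The YAP-only class was spread over DOCK5 with 5, F3 with 3, ANKRD1, NT5E and TGFB2 with 2 each, and CRIM1 and MYOF with 1 each, while AXL and IGFBP3 had 0. Its median width was 421 bp, against 2021 bp for regions found in all 4 libraries. Over the genome the same classes had median widths of 445 and 1744 bp. The class sizes changed with some settings and not with others: with each list cut to the 310657 peaks of the shortest, the 16 and 1 became 5 and 7, and with q of 0.01 or less they were 17 and 1. A further 26 regions (12.4%) had a peak in 1 library only, beside 22.4% over the genome.

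The share of regions present in all 4 libraries differed between genes. It was 8 of 9 at AXL, 32 of 46 at MYOF, 6 of 14 at NT5E, 2 of 5 at IGFBP3, 25 of 64 at DOCK5, 8 of 26 at CRIM1, 2 of 9 at ANKRD1, 2 of 11 at F3 and 4 of 25 at TGFB2. The median width of the regions was 2549 bp at AXL, 1723 bp at MYOF, 1131 bp at DOCK5, 834 bp at ANKRD1, 687.5 bp at NT5E, 583 bp at CRIM1, 573 bp at IGFBP3, 456 bp at F3 and 455 bp at TGFB2. In bases, 10.7% of the 9 windows was covered in all 4 libraries and 71.4% in none, against 7.11% and 76.4% of the genome. Without AXL and MYOF, left out for their high coverage, the shares were 2.93% and 81.4%. Shifts of this direction were built in by leaving out the fullest loci. The Jaccard index, the bases covered in both libraries of a pair divided by those covered in either, was 0.653 for the YAP pair and 0.529 for the TAZ pair over the 9 windows. It was 0.604 and 0.583 with YAP with TAZ of the same number and 0.584 and 0.588 for different numbers. For the genome the corresponding values were 0.612, 0.494, 0.540, 0.512, 0.495 and 0.530, so all 6 pairs overlapped more at the 9 genes pooled, with AXL (0.818 to 0.948) and MYOF (0.579 to 0.753) above the other 7 genes in each pair. Over those 7 the index was 0.469 for the YAP pair, 0.311 for the TAZ pair and 0.351 to 0.439 for mixed pairs. All 6 values lay below the genome's, but the genome was not trimmed of its fullest loci. At ANKRD1 the index was 0.489 with YAP and 0.108 with TAZ.

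**Figure D5:**
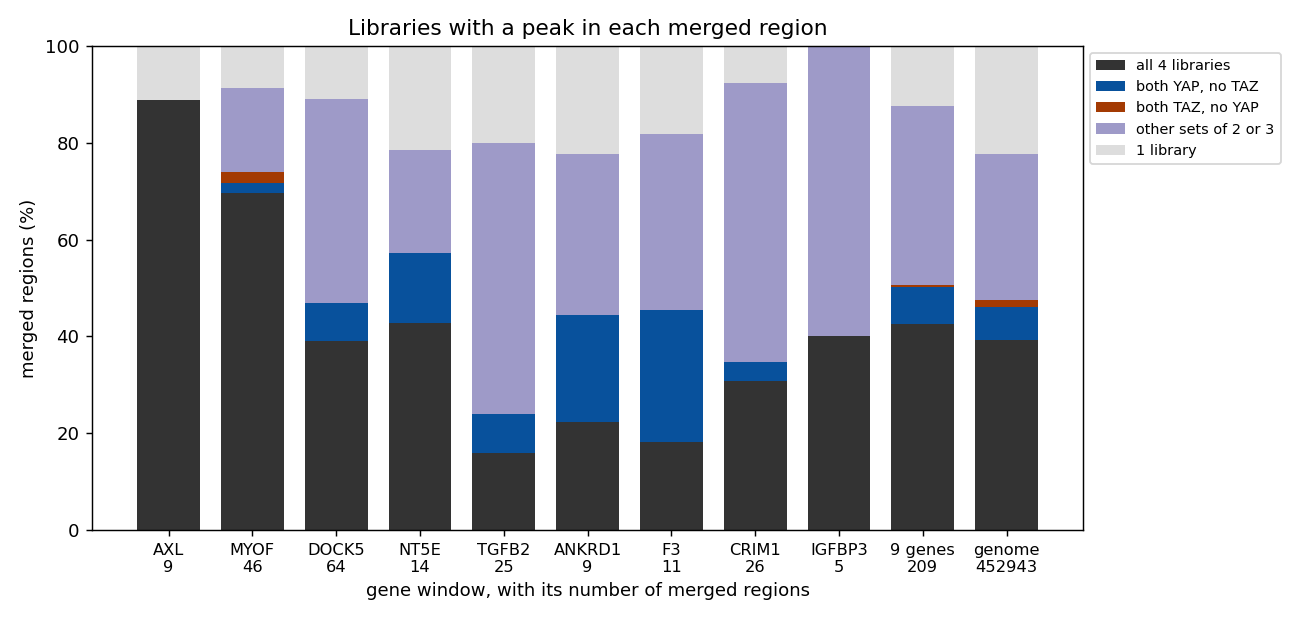
Share of the merged regions of each gene window, of the 9 windows together and of the genome, by the libraries that had a peak in them; the number under each bar is the number of regions. The black part, regions with a peak in all 4 libraries, makes up 42.6% at the 9 genes and 39.2% in the genome, and the 1 region with both TAZ and no YAP library is at MYOF.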

How the data were processed

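The submitters' processing notes list the build hg19 and the tools MACS2, Bowtie2, cutadapt and SAMtools; their versions are not given in the sources used here. Deposited files are broad peak lists, 1 for each YAP and TAZ library. The deposited fold is the authors' ratio of signal over input across a peak, −log10 p and −log10 q are those of the peak caller, and the deposited score, 10 times −log10 q, was not used. Peak names inside the lists name one input for all libraries, whereas the list names point to another for each replicate number, so the input behind each list is not settled. Read depth is unknown.

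Gene spans were given in whole kb of hg19, and lengths and chromosomes were checked against RefSeq (GRCh38.p14, names, neighbours and lengths only). Strand came from the RefSeq promoter table for 7 genes and from general knowledge for CRIM1 and DOCK5. Members and lists were chosen with earlier results of these data known. All 9 genes are named; in each, the 2 regions with a peak in all 4 libraries and the lowest sum of ranks by −log10 q, and regions of 1 antibody only where there were at most 3; other peaks named for their height were chosen after their values were seen. The fold and rank of a region are those of its best-ranked peak in each library. Peaks were merged at 1 bp overlap. A region that reached into a window was counted there with all its peaks, also those past the edge. Coverage is the percent of bases under peaks, with chromosome length taken to the last peak end. Tiled windows leave out peak-free stretches of at least 500 kb. Tests were exact permutations over libraries. Other genes of the signature were not placed, as no hg19 annotation was used. Python 3.11.15, numpy 2.4.6, pandas 2.3.3 and scipy 1.17.1 were used, and the interval code was tested on simulated data.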

Additional observations from a re-analysis of the deposited data

How the results depend on the processing

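Depth is unknown, so what was not called may lie below the threshold of a list. The counts depended strongly on which peaks entered. Regions with a peak in all 4 libraries numbered 89 with every deposited peak, 58 where q was 0.01 or less, 0 with a fold of at least 4, 2 with the 20000 best-ranked peaks, 49 without the AXL and MYOF loci, 43 with a reciprocal overlap of 50% (counted as peaks of YAP replicate 1) and 145 with a flank of 50 kb. Leaving out 1 library gave 99 to 108. Genes with a peak within 2 kb of the start in all 4 libraries numbered 4, then 2 (q-value of at most 0.01), 0 (fold of at least 4), 0 (20000 peaks) and 2 (shortened lists); leaving out a library gave 4 to 5. Regions of both YAP libraries only numbered 16, then 1 (fold of at least 4), 2 (20000 peaks), 5 (shortened lists) and 9 (no flank). Regions of both TAZ libraries only numbered 1, then 7 (shortened lists), 0 (no flank), 5 (flank of 50 kb) and 10 (reciprocal overlap of 50%). Leaving out 1 library gave 19 to 32 and 7 to 12, where the class asks for fewer libraries by construction.

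The difference in covered percent, 3.19, was -0.455 with a fold of at least 4 and -0.216 with 20000 peaks, and kept its sign otherwise, 1.26 to 5.12 with 1 library left out. The difference in relative coverage, 0.0187, was -0.00561 with a q-value of at most 0.01, -1.15 with a fold of at least 4 and -1.35 with 20000 peaks, and -0.0212 to 0.0586 with 1 library left out. For -1.15 and -1.35 the exact two-sided permutation p was 0.667 each. The cause of these shifts was not tested. With the replicate number as a block the differences stayed 3.19 and 0.0187 (exact sign-flip p = 0.5 each, the smallest that 2 pairs allow); the labels do not say that the number marks a shared batch, and the deviations of same-numbered libraries over the 9 loci had a correlation of -0.159. Leaving out AXL, or AXL and MYOF, was chosen after seeing the data and kept the sign of both differences.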
